A study of Homo sapiens with 12 samples.

Results

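The integrin, laminin, collagen and fibronectin genes were examined across 4 treatments of HEK293 cells, a human embryonic kidney line grown here as its Flp-In T-REx derivative. They were taken by name: integrin alpha and beta subunits (ITGA, ITGB), laminin chains (LAMA, LAMB, LAMC), collagen chains (COL) and fibronectin (FN1), restricted to protein-coding genes whose counts in the 12 libraries sum to 120 or more. Of 82 genes with such names, 66 met the count minimum, out of 58780 gene identifiers in the files and 13841 protein-coding genes with the same minimum. The 66 were 14 integrin alpha chains, 6 integrin beta chains, 11 laminin chains, 9 fibrillar collagens, 12 collagens of networks and basement membranes, 13 fibril-associated, transmembrane and other collagens, and FN1.

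Integrins are receptors in which 1 alpha and 1 beta chain span the plasma membrane and tie the matrix outside to actin inside. Laminins are cross-shaped trimers of an alpha, a beta and a gamma chain that polymerise into the first layer of a basement membrane, to which a second network of type IV collagen is added. Fibrillar collagens form the cables of connective tissue, FACIT collagens coat those cables, and fibronectin is a soluble glycoprotein that cells pull into fibrils through their integrins. In the kidney these proteins guide branching of the epithelium and build the filtration barrier of the glomerulus.

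Poly(A) RNA was sequenced from cells that had received control siRNA (control), an siRNA against SAFB1 (SAFB1 KD), an siRNA against SLTM (SLTM KD), or siRNAs against SAFB1, SAFB2 and SLTM together (triple KD), with 3 libraries in each group. The targets form the SAFB family of nuclear RNA-binding proteins, and the comparison asks how expression changes when 1 or all of them are depleted. All groups were transient transfections of the same wild-type line harvested on the second day. Each single knockdown was brought to the siRNA amount of the triple KD with negative control siRNA, while the amount given to control cells was not stated. Cells with the SAFB2 siRNA alone were not analysed here, so no single knockdown isolates that part of the triple KD. The replicates are called biological by the series text. Because these are bulk libraries, fewer cells of a kind and less RNA per cell cannot be told apart.

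Library depth ran from 56856228 to 75533510 counts, and each targeted gene was low in the libraries labelled for its knockdown. SAFB, the gene of SAFB1, stood at 19.5% of control in SAFB1 KD and 16.5% in triple KD, SLTM at 17.7% in SLTM KD and 21.6% in triple KD, and SAFB2 at 23.1% in triple KD. SAFB2 was higher in SAFB1 KD, at 166% of control, and in SLTM KD, at 111%. SLTM was higher in SAFB1 KD, at 120%. Genes usually expressed in HEK293 were abundant in all groups (7 of 7 tested, summed level 1856 to 1885 CPM in control and 1742 to 1764 CPM in triple KD, with 5 of the 7 called lower in triple KD). Fibroblast genes other than collagens were at or near 0 (summed level 2.02 to 2.84 CPM over all libraries, 4 of 6 testable and none called in triple KD), as were squamous epithelial genes (at most 0.238 CPM) and leukocyte genes (at most 1.91 CPM). Endothelial genes summed to 0.591 to 0.622 CPM in control and 0.866 to 1.42 CPM in triple KD, where 2 of 5, VWF and KDR, were called higher. Of the 6 colon epithelial genes 5 could be tested, and their summed level was 177 to 182 CPM in control and 182 to 184 CPM in triple KD. The part of these shifts in the results below was not tested.

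The siRNAs are shown because each could also touch other messages through its seed. The lines give the sense strand as designed, 5′ to 3′, and the capitals mark the 7 bases that an unintended target would share, opposite bases 2 to 8 of the guide strand.
SAFB1 siRNA: ggaccaagaugAUCAGAAatt
SAFB2 siRNA: ggacggucgugAUGGAUAatt
SLTM siRNA: gcauuagaauaAUUCGUGatt
The 19-base core of each matched transcripts of its own target alone among annotated genes. The capitalised word of the SAFB1 siRNA occurred in the 3′ UTR of 11 of the 66 genes (16.7%, against 17.8% of 13675 protein-coding genes with a 3′ UTR), that of the SAFB2 siRNA in 9 (13.6%, against 10.6%) and that of the SLTM siRNA in 2, COL4A2 and ITGB8 (3.03%, against 2.3%). A match of this kind is a word in a reference sequence and not a measured site.

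In control cells the 66 genes together took 2953 ± 15 CPM (mean ± SD, n = 3), where CPM is the count scaled to a library size of 1e6 reads after TMM adjustment. To set one gene beside another, levels were divided by the length of merged exons. On that scale (CPM per kb) LAMC1, the gamma chain found in most laminin trimers, was highest at 55, followed by COL6A1, a chain of the beaded type VI filaments, at 21.7 and ITGB1, the beta chain shared by the largest group of integrins, at 21.2. COL6A1 and ITGB1 lay close together. The leading alpha chain was ITGA5, which with ITGB1 forms the classical fibronectin receptor, at 9.02. The leading FACIT collagen was COL14A1 at 9.71, the leading fibrillar collagen was the cartilage collagen COL2A1 at 8.44, and FN1 stood at 4.2. The lowest value was 0.0113, for LAMA2, the laminin alpha chain of muscle. The genes thus covered a wide range, and in each class except fibronectin the lowest member lay far below the leading one.

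**Figure D1:**
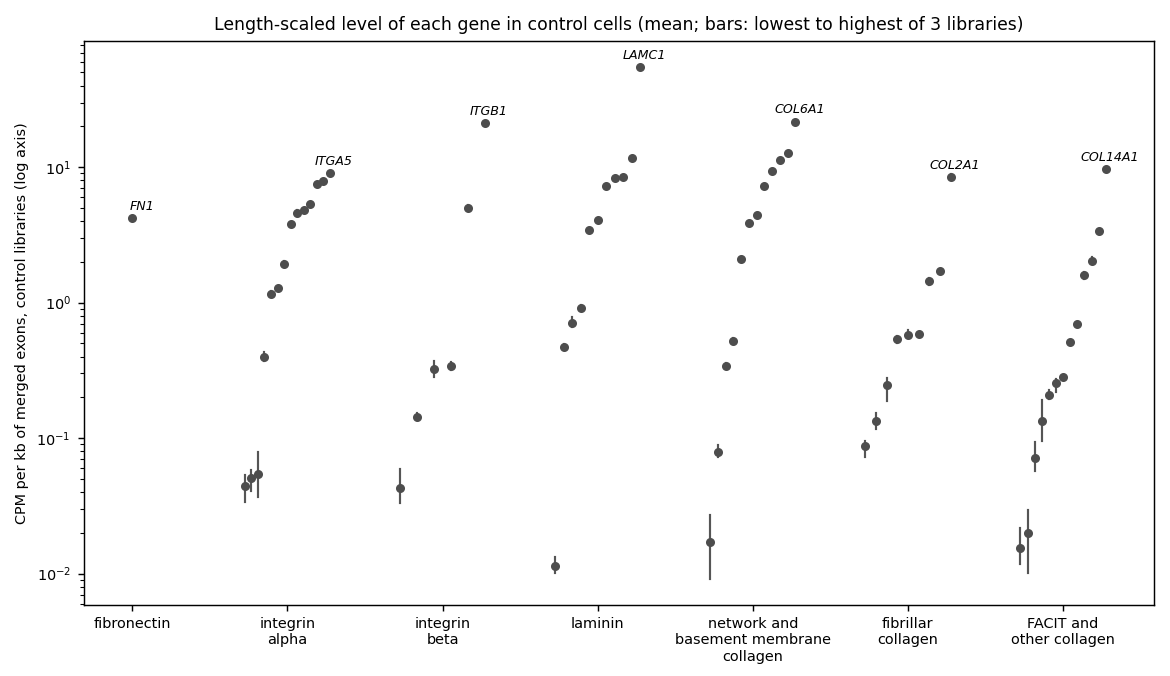
Length-scaled level of each of the 66 genes in control cells, as CPM per kb of merged exons on a log axis, by class. Points are means and bars run from the lowest to the highest of 3 libraries; LAMC1 leads at 55, and the leading gene of each class is named.

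In triple KD, 12 of the 66 genes were called higher and 29 lower than in control (edgeR quasi-likelihood F test, adjusted p under 0.05 over 26688 genes). Over all genes tested 19.4% were called higher and 20.9% lower, and over protein-coding genes with at least 120 counts 28.7% and 33.7%. Of the 66 genes 18.2% were thus higher and 43.9% lower. The median of their log2 fold changes was -0.11, where those protein-coding genes had -0.02. The changes were small to moderate. In the test for a change over 2-fold, 0 of the 66 passed in edgeR, DESeq2 or limma-voom, and 0 had an unadjusted p under 0.05 in any of them. Over all genes tested in edgeR 0.543% passed upward and 0.412% downward, so 0 of 66 lies near that share. The called changes ran from -0.90 for ITGA8 to 0.73 for LAMB3 on the log2 scale, and the values of the 25 genes not called from -0.48 for COL15A1 to 0.44 for COL9A1.

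**Figure D2:**
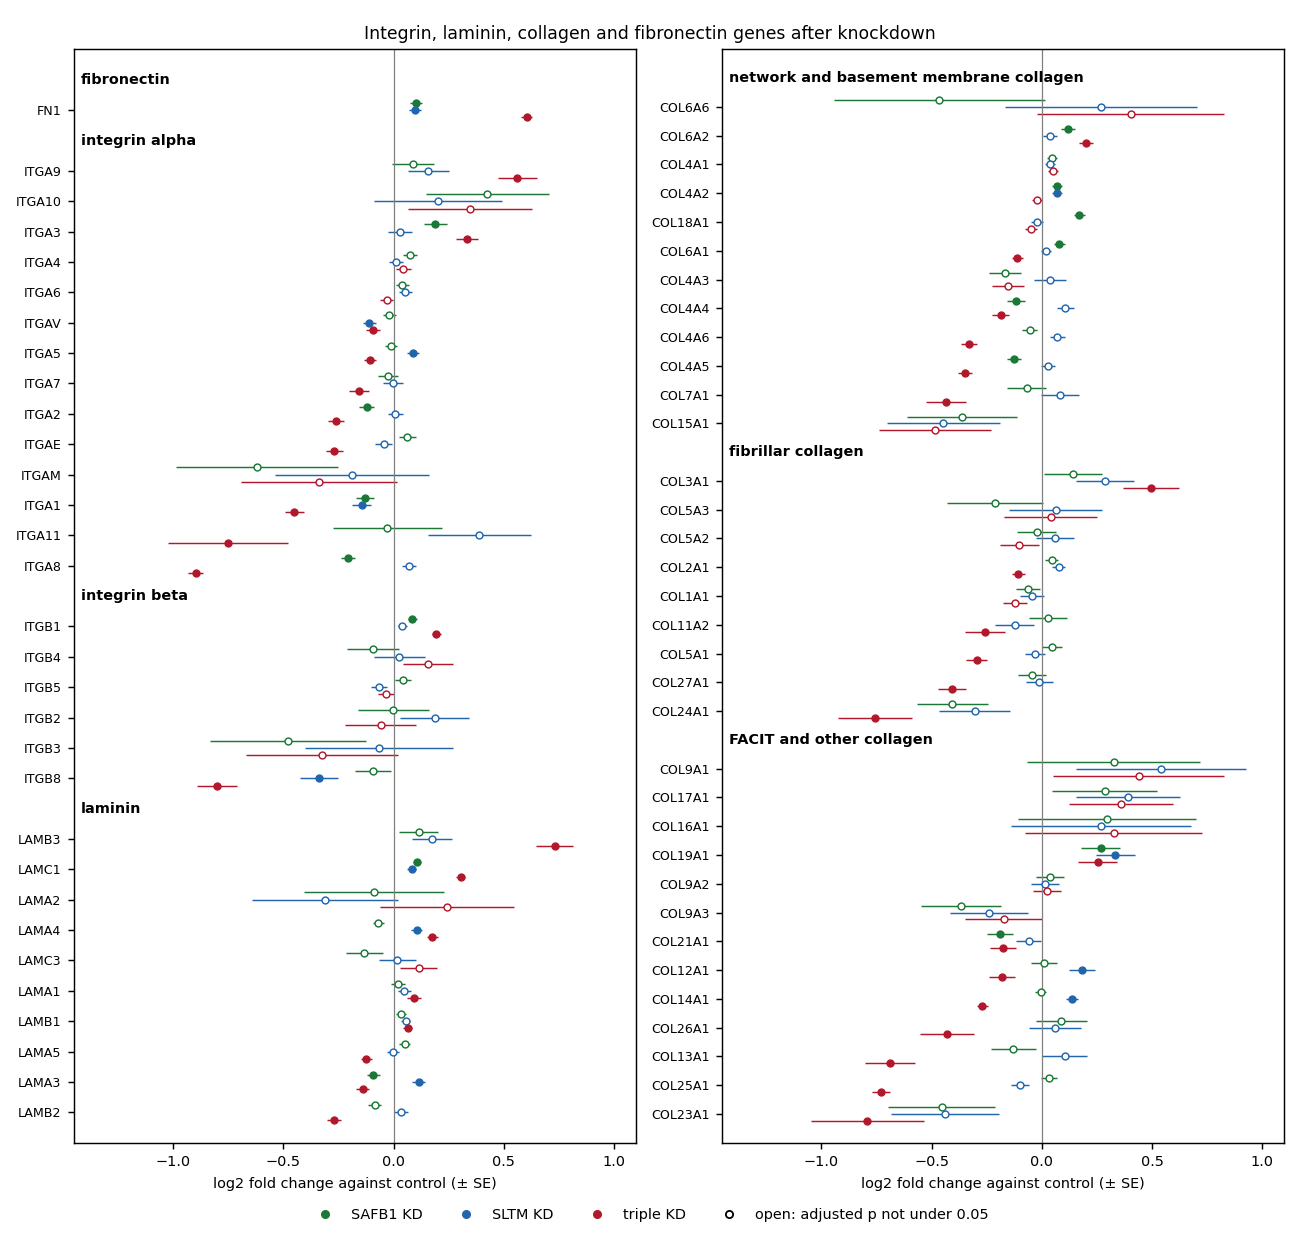
Log2 fold change against control of the genes, by class, in SAFB1 KD, SLTM KD and triple KD, with the standard error of the fit; filled points have an adjusted p under 0.05. The red points of triple KD reach furthest to both sides, from -0.90 for ITGA8 to 0.73 for LAMB3, while most points of the single knockdowns lie close to 0.

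FN1, on the minus strand of chromosome 2 (GRCh38, 215360440 to 215436073), rose in triple KD. Its level was 74.1, 72.9 and 70.1 CPM in control, 76.1, 78.3 and 78.6 CPM in SAFB1 KD, 77.5, 78.3 and 76.5 CPM in SLTM KD and 110, 113 and 107 CPM in triple KD. Every knockdown library lay above every control library, and the triple KD stood well apart from the single knockdowns. The log2 fold change in triple KD was 0.60 ± 0.026 (SE, adjusted p = 6.5e-29), a 1.52-fold rise. In SAFB1 KD and SLTM KD, which share the same controls, it was 0.10 in each case (adjusted p = 0.0074 and 0.012).

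Among the laminins, 5 of 11 rose and 3 fell in triple KD. LAMC1 was at 469, 464 and 460 CPM in control, 485, 509 and 505 CPM in SAFB1 KD, 485, 507 and 484 CPM in SLTM KD and 574, 583 and 564 CPM in triple KD. It was above control in all 9 knockdown libraries, by 0.31 ± 0.02 on the log2 scale in triple KD (adjusted p = 1.1e-20), 0.11 in SAFB1 KD (adjusted p = 7.9e-05) and 0.08 in SLTM KD (adjusted p = 0.0026). LAMB3, a beta chain of the epithelial laminin that anchors skin, was sparse at 3.08, 3.61 and 3.22 CPM in control, 3.31, 3.7 and 3.76 CPM in SAFB1 KD, 3.87, 3.55 and 3.8 CPM in SLTM KD and 5.46, 5.49 and 5.54 CPM in triple KD. Its triple KD libraries were the highest and did not overlap any other group, with a log2 fold change of 0.73 ± 0.084 (adjusted p = 3.7e-11). Its single knockdowns overlapped control and were not called.

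LAMA3, an alpha chain that assembles with LAMB3, did not follow it. LAMA3 was at 57.3, 59.8 and 58.7 CPM in control, 54.9, 55.1 and 55 CPM in SAFB1 KD, 62, 63.5 and 64.9 CPM in SLTM KD and 52.4, 54.5 and 52.6 CPM in triple KD. It was lower in SAFB1 KD and triple KD and higher in SLTM KD, and none of these groups overlapped control. The log2 fold changes were -0.09 in SAFB1 KD (adjusted p = 0.03), 0.11 in SLTM KD (adjusted p = 0.0046) and -0.14 in triple KD (adjusted p = 5.2e-05).

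The other alpha and beta chains moved by less. LAMA4, an alpha chain of vessels and mesenchyme, rose from 98.9 ± 0.751 to 112 ± 0.218 CPM in triple KD (log2 fold change 0.18, adjusted p = 5.4e-09) and was also called higher in SLTM KD, at 106 ± 0.186 CPM. LAMA1, the alpha chain of the first embryonic basement membranes, rose by 0.09 (adjusted p = 0.01), and LAMB1, its usual beta chain, singled out here after its values were seen, by 0.06 (adjusted p = 0.01). LAMB2, a beta chain of the glomerular basement membrane and the neuromuscular junction, was at 49.9, 50.4 and 48.4 CPM in control and 40.6, 41.4 and 41.4 CPM in triple KD, a log2 fold change of -0.27 ± 0.031 (adjusted p = 6e-11). LAMA5, the most widely expressed alpha chain of adult basement membranes, fell by 0.12 on the log2 scale (adjusted p = 6.4e-05). As a sum over the 11 chains, laminin message was 1079.5 ± 6.98 CPM in control and 1193.5 ± 13.3 CPM in triple KD, and LAMC1 alone made up most of that difference in CPM.

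Of the integrin beta chains, 1 of 6 rose and 1 fell in triple KD. ITGB1 was at 306, 310 and 309 CPM in control, 317, 331 and 333 CPM in SAFB1 KD, 316, 326 and 308 CPM in SLTM KD and 354, 357 and 347 CPM in triple KD. The triple KD libraries were above all others, and those of SLTM KD overlapped control. ITGB1 had a log2 fold change of 0.19 ± 0.021 in triple KD (adjusted p = 4.9e-12), 0.09 in SAFB1 KD (adjusted p = 0.0034) and 0.04 in SLTM KD (adjusted p = 0.29).

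ITGB8, which pairs with ITGAV and releases TGF-beta from its latent form, fell. It was at 5.19, 5.53 and 4.83 CPM in control, 4.74, 5.34 and 4.43 CPM in SAFB1 KD, 4.22, 4.29 and 3.78 CPM in SLTM KD and 3.31, 2.81 and 2.84 CPM in triple KD. SLTM KD and triple KD lay below control without overlap, and SAFB1 KD overlapped it. The log2 fold change was -0.80 ± 0.09 in triple KD (adjusted p = 1.9e-11) and -0.34 ± 0.086 in SLTM KD (adjusted p = 0.0047, or 0.0517 without control replicate 2). ITGB8 is 1 of the 2 genes that hold the seed word of the SLTM siRNA, and it also holds those of the other siRNAs. The other gene, COL4A2, was called higher in SLTM KD (log2 fold change 0.07, adjusted p = 0.03), and the part of these words was not tested. Its partner ITGAV differed less, with a log2 fold change of -0.09 in triple KD (adjusted p = 0.011) and -0.11 in SLTM KD (adjusted p = 0.012). The SLTM KD call was lost without control replicate 1 (adjusted p = 0.0919), control replicate 2 (0.0514) or SLTM KD replicate 3 (0.176).

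Of the integrin alpha chains, 2 of 14 rose and 8 fell in triple KD, and their summed level went from 438 ± 2.66 to 385 ± 5.02 CPM. The largest single difference was that of ITGA8, an alpha chain that pairs with ITGB1, binds nephronectin and is needed for the ureteric bud to enter the kidney mesenchyme. ITGA8, on the minus strand of chromosome 10 (15513954 to 15719922), was at 57.2, 60 and 57 CPM in control, 49.8, 51.8 and 49.5 CPM in SAFB1 KD, 60.4, 63.4 and 59.3 CPM in SLTM KD and 31.4, 32.6 and 29.6 CPM in triple KD. The triple KD libraries were the lowest, those of SAFB1 KD lay between them and control, and those of SLTM KD overlapped control. The log2 fold change was -0.90 ± 0.034 in triple KD (adjusted p = 6.1e-32) and -0.21 ± 0.032 in SAFB1 KD (adjusted p = 3.1e-06).

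**Figure D3:**
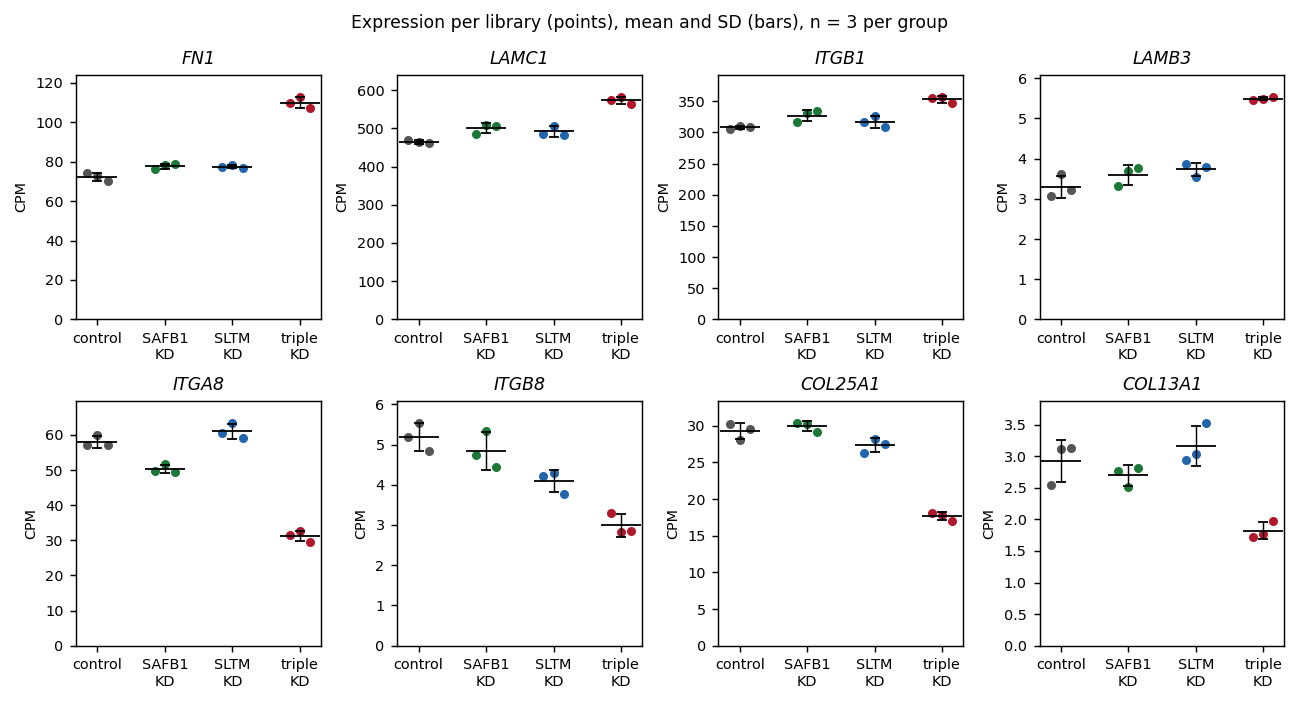
CPM in each library (points) with the mean and SD (bars) of 3 libraries per group, for 4 genes called higher (upper row) and 4 called lower (lower row) in triple KD. In all 8 panels the triple KD libraries lie outside the range of every other group, as for FN1 at 107 to 113 CPM against 70.1 to 74.1 CPM in control.

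The collagen-binding alpha chains that were called all fell. ITGA1, which prefers network collagens, was at 23.2, 24.3 and 23.6 CPM in control, 21.9, 22.4 and 20.6 CPM in SAFB1 KD, 22, 21.6 and 20.7 CPM in SLTM KD and 16.7, 17.8 and 17.4 CPM in triple KD. No knockdown library reached the lowest control library. ITGA1 had a log2 fold change of -0.45 ± 0.043 in triple KD (adjusted p = 8.1e-14), -0.13 in SAFB1 KD (adjusted p = 0.037) and -0.15 in SLTM KD (adjusted p = 0.017), and both single knockdown calls were lost without control replicate 2 (adjusted p = 0.131 and 0.0862). The SAFB1 KD call was also lost without control replicate 3 (0.0531) or SAFB1 KD replicate 3 (0.228), and the SLTM KD call without SLTM KD replicate 3 (0.0859). ITGA1 shares a stretch of its strand with PELO, where reads that fit both genes are counted for neither, and PELO itself was at a log2 fold change of -0.15 in triple KD. ITGA2, which prefers fibrillar collagens, fell by 0.26 on the log2 scale in triple KD (adjusted p = 2.3e-09) and by 0.12 in SAFB1 KD (adjusted p = 0.013, or 0.0512 without SAFB1 KD replicate 1).

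ITGA11, another fibrillar collagen receptor, was near the detection floor at 0.575, 0.443 and 0.636 CPM in control and 0.403, 0.462 and 0.11 CPM in triple KD. The groups overlapped, the log2 fold change was -0.75 ± 0.27 (adjusted p = 0.022), and without triple KD replicate 3 it was -0.34 (adjusted p = 0.34). It also missed the threshold in DESeq2 (adjusted p = 0.0539) and without control replicate 1 (0.0518) or 3 (0.112). ITGAE, the alpha chain with which resident lymphocytes hold E-cadherin, was measured at 30.2 ± 1.45 CPM in control and fell to 25.1 ± 1.06 CPM in triple KD (log2 fold change -0.27, adjusted p = 3.2e-08). ITGA5 fell by 0.11 on the log2 scale in triple KD (adjusted p = 0.0011) and rose by 0.09 in SLTM KD (adjusted p = 0.032).

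Of the alpha chains that rose, ITGA3, a laminin receptor of epithelia and the glomerulus, was at 10.8, 11.9 and 11.5 CPM in control, 13.1, 13.1 and 12.9 CPM in SAFB1 KD, 11.8, 11.6 and 11.5 CPM in SLTM KD and 14.7, 14.1 and 14.4 CPM in triple KD. SAFB1 KD and triple KD lay above control without overlap, with log2 fold changes of 0.19 ± 0.051 (adjusted p = 0.0091) and 0.33 ± 0.05 (adjusted p = 8.1e-08). The smaller change missed the threshold on leaving out control replicate 1 (adjusted p = 0.0933) or replicate 1 of SAFB1 KD (0.0531). ITGA9, a receptor for tenascin C and other ligands, was at 3.24, 3.56 and 3.07 CPM in control and 4.92, 5.1 and 4.54 CPM in triple KD. These did not overlap, and the log2 fold change was 0.56 ± 0.089 (adjusted p = 2.8e-07).

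Among the 12 collagens of networks and basement membranes, 1 rose and 5 fell in triple KD. The 6 type IV collagen genes lie in 3 head-to-head pairs, each pair transcribed outward from neighbouring starts, and all 6 are given here to complete the pairs. In the GENCODE annotation COL4A1 and COL4A2, the ubiquitous chains, overlap at their starts on chromosome 13, 170 bp separate COL4A4 from COL4A3 on chromosome 2, and 340 bp separate COL4A6 from COL4A5 on chromosome X. The chains of the last pairs are those of the mature glomerular and epithelial basement membranes, and COL4A3, COL4A4 and COL4A5 are the genes of Alport nephritis.

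COL4A5 was at 51, 52.9 and 54.2 CPM in control, 47.1, 47.7 and 50.1 CPM in SAFB1 KD, 52.3, 55.9 and 53.1 CPM in SLTM KD and 41.2, 41.9 and 40.9 CPM in triple KD. COL4A6 was at 35.8, 36.6 and 35.9 CPM in control, 34.1, 35.3 and 34.8 CPM in SAFB1 KD, 36.4, 38.3 and 39 CPM in SLTM KD and 29.4, 28.2 and 28.7 CPM in triple KD. Both were lowest in triple KD and lower in SAFB1 KD than in control without overlap, although COL4A6 was not called in SAFB1 KD (adjusted p = 0.39). In triple KD the log2 fold changes were -0.35 ± 0.032 for COL4A5 (adjusted p = 2.3e-14) and -0.33 ± 0.035 for COL4A6 (adjusted p = 4.3e-12). COL4A4 fell by 0.19 on the log2 scale (adjusted p = 8e-05), beside -0.15 ± 0.072 for COL4A3 (adjusted p = 0.089), with a CPM ratio of COL4A3 to COL4A4 of 0.256 in control. COL4A4 and COL4A5 both hold the seed word of the SAFB1 siRNA and both were called lower in SAFB1 KD, at -0.12 (adjusted p = 0.048) and -0.13 (adjusted p = 0.0041). They were 2 of the 7 genes called lower there. Among the 1003 protein-coding genes with a 3′ UTR called lower 38.7% held it, beside 11.5% of those called higher and 16.6% of those not called. COL4A1 and COL4A3 also hold the word and were not called in SAFB1 KD, and COL19A1 holds it and was called higher. The part of the word was not tested.

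COL4A1 and COL4A2 were not called in triple KD, with log2 fold changes of 0.05 ± 0.023 (adjusted p = 0.067) and -0.02 ± 0.022 (adjusted p = 0.46). Against control COL4A2 was called higher in SAFB1 KD and SLTM KD, while COL4A1 was called in neither. COL4A2 was also called lower in triple KD than in either single knockdown, and COL4A1 was not. The CPM ratio of COL4A1 to COL4A2 was 0.917 to 0.927 in control and 0.961 to 0.982 in triple KD, without overlap. The 2 members of a pair differed in log2 fold change by 0.0208 to 0.0737 in triple KD, 0.0229 to 0.0719 in SAFB1 KD and 0.0335 to 0.0697 in SLTM KD. The pairs themselves lay further apart in triple KD, from about 0 for COL4A1 and COL4A2 to -0.35 for COL4A5. These differences are descriptions and were not tested.

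**Figure D4:**
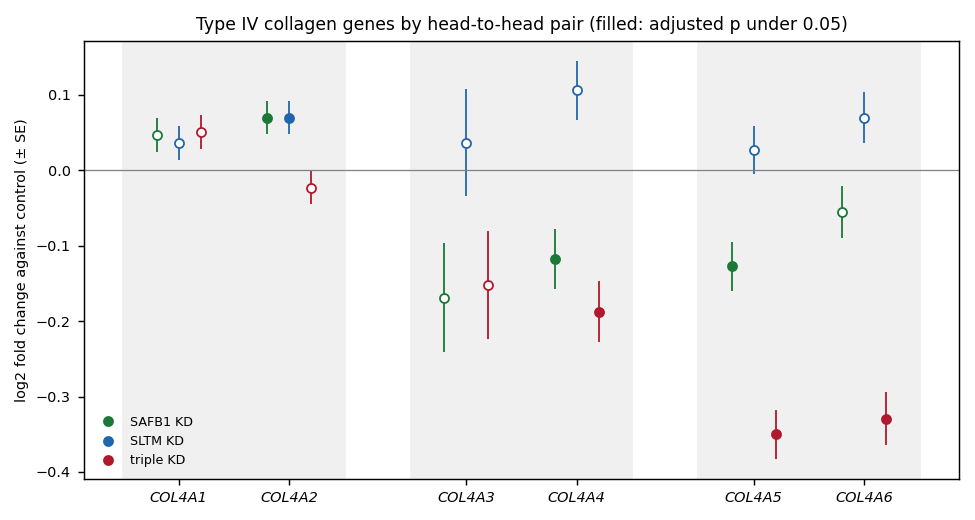
Log2 fold change against control with its standard error for the 6 type IV collagen genes, shaded by head-to-head pair; filled points have an adjusted p under 0.05. COL4A5 and COL4A6 lie together at -0.35 and -0.33 in triple KD, while COL4A1 and COL4A2 lie near 0.

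Each pair is shown through the promoter of 1 member (RefSeq, GRCh38.p14, 250 bases before to 50 after the start, 5′ to 3′ on the strand of the named gene). Capitals mark GC boxes (GGGCGG) and CCAAT boxes (CCAAT) on either strand, which occurred in 45% and 34.6% of 35116 human promoters of this length, and TATAAA, found in 11.5% of them, is in none of the 3 windows.
COL4A2 (chr13:110307034-110307333, plus strand): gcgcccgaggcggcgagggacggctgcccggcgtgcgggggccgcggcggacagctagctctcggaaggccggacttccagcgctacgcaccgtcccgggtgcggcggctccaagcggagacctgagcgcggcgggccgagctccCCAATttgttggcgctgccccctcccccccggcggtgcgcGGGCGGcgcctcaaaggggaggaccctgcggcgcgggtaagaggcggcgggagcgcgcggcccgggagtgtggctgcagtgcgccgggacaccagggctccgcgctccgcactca
COL4A3 (chr2:227164374-227164673, plus strand): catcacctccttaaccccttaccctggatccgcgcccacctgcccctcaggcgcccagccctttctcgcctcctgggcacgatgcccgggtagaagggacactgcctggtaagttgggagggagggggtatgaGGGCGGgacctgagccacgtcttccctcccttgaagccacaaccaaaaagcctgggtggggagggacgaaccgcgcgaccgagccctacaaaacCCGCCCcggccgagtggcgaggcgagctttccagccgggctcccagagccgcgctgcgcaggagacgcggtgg
COL4A5 (chrX:108439588-108439887, plus strand): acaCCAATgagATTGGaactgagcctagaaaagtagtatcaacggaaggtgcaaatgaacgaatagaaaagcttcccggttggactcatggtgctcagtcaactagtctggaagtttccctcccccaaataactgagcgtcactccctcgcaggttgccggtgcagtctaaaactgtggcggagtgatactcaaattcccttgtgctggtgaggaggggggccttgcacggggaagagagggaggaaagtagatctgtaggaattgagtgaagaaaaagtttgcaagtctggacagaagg
The starts in RefSeq can differ from those in GENCODE, which gave the distances above. The COL4A2 window held 45 CpG pairs at 77.7% G and C with 1 GC box and 1 CCAAT box, and that of COL4A3 held 24 at 67.7% with 2 GC boxes. Of the 3 printed, the COL4A5 window was the poorest, with 8 CpG pairs at 49.3%, no GC box and 2 CCAAT boxes near its upstream end. Windows of the partners can differ. That of COL4A4 held no GC box, 1 COL4A6 window held 3 CCAAT boxes and no GC box, and another held 1 GC box and no CCAAT box. Whether these features bear on the changes was not tested.

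COL7A1, the collagen of the anchoring fibrils that hold the epidermis, fell from 3.66, 3.96 and 3.73 CPM in control to 2.63, 2.89 and 2.87 CPM in triple KD. These ranges did not overlap, and the log2 fold change was -0.44 ± 0.093 (adjusted p = 7.6e-05). The type VI chains moved apart. COL6A1 was at 120 ± 0.498 CPM in control, 127 ± 1.45 CPM in SAFB1 KD and 111 ± 0.818 CPM in triple KD (log2 fold change 0.08, adjusted p = 0.023, and -0.11, adjusted p = 9.3e-05). Its partner chain COL6A2 was at 38.6 ± 0.768, 41.9 ± 1.14 and 44.4 ± 0.44 CPM in the same groups, higher in both (log2 fold change 0.12, adjusted p = 0.01, and 0.20, adjusted p = 3.6e-07). COL6A2 was no longer called in SAFB1 KD on leaving out control replicate 1 (adjusted p = 0.0863) or replicate 2 of SAFB1 KD (0.138).

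COL18A1, whose C terminus is released as endostatin, was at 108, 107 and 108 CPM in control, 120, 126 and 117 CPM in SAFB1 KD, 104, 103 and 111 CPM in SLTM KD and 107, 102 and 103 CPM in triple KD. Its SAFB1 KD libraries stood above all others, and those of SLTM KD and triple KD overlapped control. The log2 fold change was 0.17 ± 0.027 in SAFB1 KD (adjusted p = 2.5e-06) and -0.05 in triple KD (adjusted p = 0.13). SLC19A1, which overlaps it on the opposite strand, was at a log2 fold change of 0.12 in SAFB1 KD and 0.65 in triple KD, and the counts were made by strand.

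Of the 9 fibrillar collagens, 1 rose and 5 fell in triple KD, and none was called in either single knockdown. COL5A1, which nucleates collagen fibrils, was at 19.3, 19.9 and 18.3 CPM in control and 15.6, 15.4 and 15.9 CPM in triple KD, without overlap (log2 fold change -0.30 ± 0.047, adjusted p = 2.3e-07). COL27A1, a collagen of cartilage, was at 8.28, 8.31 and 8.25 CPM in control and 6.22, 6.35 and 6.14 CPM in triple KD, also without overlap (log2 fold change -0.41 ± 0.065, adjusted p = 2.3e-07). COL24A1, described in developing bone, was scarce at 1.12, 1.22 and 1.47 CPM in control and 0.753, 0.751 and 0.757 CPM in triple KD (log2 fold change -0.76 ± 0.17, adjusted p = 0.00014). The triple KD libraries lay close together in all 3 of these genes. For COL24A1, with 783 counts over the 12 libraries, that closeness says little about precision.

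COL11A2, a cartilage collagen, was at 4.26 ± 0.312 CPM in control and 3.54 ± 0.364 CPM in triple KD (log2 fold change -0.26, adjusted p = 0.015), a call lost without control replicate 1 (adjusted p = 0.106) and on leaving out triple KD replicate 1 (0.112) or 2 (0.0513). COL2A1, the most abundant of the class per length, fell by 0.11 on the log2 scale (adjusted p = 0.0038). COL3A1, the collagen of vessel walls and distensible tissue, rose, from 1.85, 1.28 and 1.87 CPM in control to 2.35, 2.4 and 2.27 CPM in triple KD. Its groups did not overlap, and the log2 fold change was 0.50 ± 0.13 (adjusted p = 0.00089).

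Of the 13 FACIT, transmembrane and other collagens, 1 rose and 7 fell in triple KD, and their summed level went from 168 ± 1.81 to 136 ± 1.06 CPM. Of the transmembrane collagens, which stay anchored in the plasma membrane of the cell that makes them, 3 of 4 were called lower and COL17A1 was not called. COL25A1, a transmembrane collagen of neurons also found in amyloid plaques, lies on the minus strand of chromosome 4 (108808725 to 109302752). It was at 30.2, 28.1 and 29.6 CPM in control, 30.4, 30.3 and 29.2 CPM in SAFB1 KD, 26.3, 28.2 and 27.6 CPM in SLTM KD and 18.1, 17.8 and 17.1 CPM in triple KD. Only the triple KD libraries stood apart, with a log2 fold change of -0.73 ± 0.041 (adjusted p = 1.2e-23), beside 0.03 in SAFB1 KD (adjusted p = 0.73) and -0.10 in SLTM KD (adjusted p = 0.11).

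COL13A1, a transmembrane collagen needed at the neuromuscular junction, was at 2.54, 3.12 and 3.12 CPM in control, 2.76, 2.51 and 2.82 CPM in SAFB1 KD, 2.94, 3.03 and 3.52 CPM in SLTM KD and 1.72, 1.78 and 1.97 CPM in triple KD. Again the triple KD libraries alone lay outside the others (log2 fold change -0.69 ± 0.11, adjusted p = 4.2e-07). COL23A1 was measured at 0.415, 0.833 and 0.516 CPM in control and 0.35, 0.318 and 0.363 CPM in triple KD. These did not overlap, but the log2 fold change of -0.79 ± 0.25 (adjusted p = 0.0089) became -0.45 (adjusted p = 0.23) without control replicate 2.

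COL14A1, which coats collagen fibrils in tendon and skin, was at 97.6, 100 and 98.8 CPM in control, 96, 99.8 and 100 CPM in SAFB1 KD, 109, 112 and 106 CPM in SLTM KD and 80.5, 82.9 and 82.7 CPM in triple KD. SLTM KD lay above and triple KD below control without overlap, at log2 fold changes of 0.14 ± 0.026 (adjusted p = 8.6e-05) and -0.27 ± 0.026 (adjusted p = 9.9e-14). COL12A1, a relative with the same position on fibrils, was at log2 fold changes of 0.18 in SLTM KD (adjusted p = 0.033) and -0.18 in triple KD (adjusted p = 0.01), and its SLTM KD call was lost without a low count filter (adjusted p = 0.0648) and, with adjusted p of 0.0601 to 0.204, on leaving out any control library, SLTM KD replicate 1 or SLTM KD replicate 2.

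COL19A1, a FACIT collagen of muscle and synapses, was at 3.03, 3.08 and 3.19 CPM in control, 3.77, 3.55 and 3.9 CPM in SAFB1 KD, 3.83, 3.76 and 4.14 CPM in SLTM KD and 3.61, 3.87 and 3.6 CPM in triple KD. All 9 knockdown libraries exceeded all 3 controls, by log2 fold changes of 0.27 (adjusted p = 0.045), 0.33 (adjusted p = 0.0087) and 0.25 (adjusted p = 0.019). The SAFB1 KD call did not survive DESeq2 (adjusted p = 0.0736), limma-voom (0.0669), the lack of a low count filter (0.107) or leaving out any control or SAFB1 KD library (0.0588 to 0.158). The triple KD call was lost without control replicate 1 (adjusted p = 0.0513) or triple KD replicate 2 (0.0868), and the SLTM KD call without SLTM KD replicate 3 (0.0683). COL21A1, a FACIT collagen of vessel walls, fell by 0.18 on the log2 scale in triple KD (adjusted p = 0.0098) and by 0.19 in SAFB1 KD (adjusted p = 0.024). The latter call was lost without control replicate 2 (adjusted p = 0.147), control replicate 3 (0.0571) or SAFB1 KD replicate 3 (0.179). COL26A1, a short secreted collagen, fell by 0.43 in triple KD (adjusted p = 0.0033).

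In SAFB1 KD, 9 of the 66 genes were called higher and 7 lower, where 5.04% of all genes and 8.83% of protein-coding genes with at least 120 counts were called higher and 4.62% and 7.28% lower. Without the low count filter the split was 6 higher and 9 lower. The number higher was 4 or 5 without control replicate 1 or 3, 5 without SAFB1 KD replicate 1 and 3 without SAFB1 KD replicate 2, and the number lower was 3 without control replicate 2 or SAFB1 KD replicate 3. Those with the largest changes were COL19A1, ITGA3, COL18A1, COL6A2 and LAMC1 upward and ITGA8, COL21A1, ITGA1, COL4A5 and ITGA2 downward, all described above. In SLTM KD, 10 were called higher and 3 lower, where 3.6% and 5.36% were called higher and 5.65% and 10.1% lower, and without the low count filter 6 were called higher and 3 lower. The number higher was 6 without control replicate 3 or SLTM KD replicate 3 and 4 without SLTM KD replicate 2, and 1 was lower without control replicate 2 or SLTM KD replicate 3. Those higher included COL19A1, COL12A1, COL14A1 and LAMA3, and the 3 that fell were ITGB8, ITGA1 and ITGAV. The median log2 fold change over the 66 genes was -0.01 in SAFB1 KD and 0.04 in SLTM KD, against 0.01 and 0.00 over protein-coding genes with the same minimum.

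Set directly against the single knockdowns, triple KD had 10 of the 66 genes higher and 25 lower than SAFB1 KD (16.2% and 18.6% of all genes, 23.5% and 32.2% of protein-coding genes with at least 120 counts), and 8 higher and 29 lower than SLTM KD (17.5% and 18.8% of all genes, 27.4% and 30.1% of those protein-coding genes). The 66 genes thus had 37.9% and 43.9% lower. ITGA8 was lower in triple KD than in either, and FN1 higher. SAFB1 KD had 7 genes higher and 13 lower than SLTM KD (9.27% and 6.78% of all genes, 16.8% and 9.88% of the protein-coding genes), a split that became 2 higher and 13 lower with upper-quartile scaling and 4 and 12 with DESeq2. The 20 calls became 12 without SAFB1 KD replicate 1 and 13 without SAFB1 KD replicate 2 or SLTM KD replicate 1. When the SAFB1 KD and SLTM KD changes were added and taken away from that of triple KD, the remainder was called positive for 4 of the 66 genes and negative for 27, where 9.48% and 11.9% of all genes and 15.6% and 21.1% of the protein-coding genes were called. This remainder includes whatever the SAFB2 siRNA did. SAFB2 was itself higher in SAFB1 KD and in SLTM KD, and SLTM was higher in SAFB1 KD.

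The 5 remainders with the smallest p, on the log2 scale, were -0.76 ± 0.047 for ITGA8 (adjusted p = 7.8e-21), -0.66 ± 0.057 for COL25A1 (adjusted p = 6.1e-15), -0.40 ± 0.037 for COL14A1 (adjusted p = 7.2e-14), 0.40 ± 0.038 for FN1 (adjusted p = 2.1e-13) and -0.34 ± 0.05 for COL4A6 (adjusted p = 1.1e-07). For COL25A1 the summed single changes were small, so the remainder is nearly the whole triple KD change. For COL14A1 it exceeds that change, since its SLTM KD change had the opposite sign. COL25A1 holds the seed word of the SAFB2 siRNA, which was given in triple KD only. That word was in 4 of the 29 genes lower in triple KD (COL25A1, ITGA11, ITGB8, LAMA3), 2 of the 12 higher and 3 of the 25 not called. Among protein-coding genes with a 3′ UTR 15.2% of those lower held it, 7.97% of those higher and 8.46% of those not called. The part of the word was not tested.

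Genes that these proteins work with were taken from 5 lists. Of 34 testable genes that link integrins to actin or tune them, 12 rose and 7 fell in triple KD. FLNA, which crosslinks actin and binds integrin tails, rose from 940.6 ± 15.3 to 1214 ± 18.5 CPM (log2 fold change 0.37, adjusted p = 1.5e-26), PARVA, which joins ILK to actin, rose by 0.35, and FERMT1, a kindlin that activates integrins, fell by 0.41. PTK2B of that list fell by 0.36. Of 14 basement membrane partners, 2 rose and 6 fell. NID1, which bridges the laminin and type IV collagen networks, rose from 205 ± 3.42 to 268 ± 3.61 CPM (log2 fold change 0.39, adjusted p = 1.2e-24), and DAG1, a laminin receptor, by 0.12, while FREM1, a matrix protein of embryonic epithelia, fell by 0.66 at about 1 CPM. PAPLN fell by 0.25.

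Of 32 genes of collagen biosynthesis, 11 rose and 8 fell. P3H1, which hydroxylates collagen prolines, rose by 0.56 on the log2 scale (adjusted p = 7.3e-24), and COLGALT2, which adds galactose to collagen, fell by 0.46 (adjusted p = 2.2e-09). TLL2 fell by 0.59 and LOXL4 rose by 0.55. Of 24 testable genes of matrix turnover, 6 rose and 6 fell. ADAMTS1, a protease of proteoglycans, fell from 365 ± 2.71 to 246 ± 3.25 CPM (log2 fold change -0.57, adjusted p = 3e-34) and MMP2, a gelatinase, fell by 0.43. MMP24 rose by 0.56 (adjusted p = 1.1e-05) and PLAU by 0.44 (adjusted p = 0.0015). Of 32 testable glycoproteins and collagen receptors, 14 rose and 3 fell. TNC, the tenascin that ITGA9 binds, rose by 0.81 (adjusted p = 1.9e-19) and VCAN, a large proteoglycan, rose from 164 ± 2.82 to 268 ± 5.74 CPM (log2 fold change 0.71, adjusted p = 1.2e-35), while FBN1, the microfibril protein fibrillin, fell by 0.19. LTBP3 of that list fell by 0.28. Over the lists together 45 of 136 rose (33.1%) and 30 fell (22.1%) in triple KD, beside 28.7% and 33.7% of protein-coding genes with at least 120 counts, with a median log2 fold change of 0.04. In SAFB1 KD 23 rose (16.9%) and 4 fell (2.94%), beside 8.83% and 7.28%. In SLTM KD 14 rose (10.3%) and 10 fell (7.35%), beside 5.36% and 10.1%, and the 24 calls became 15 without control replicate 1 or without control replicate 3.

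Matrix and integrin genes are long, and length was not used to choose them. The median span of the 66 was 98.2 kb, against 34.2 kb for protein-coding genes with the same count minimum. Of the 24 that span over 150 kb, 15 were called lower in triple KD (62.5%) and 3 higher, whereas 35.1% of all 1727 such protein-coding genes were called lower and 32.3% higher. Of the 17 that span up to 50 kb, 7 were lower (41.2%) and 4 higher (23.5%), beside 32.3% and 27.5% of protein-coding genes of that span. Of the 25 between, 7 were lower (28%) and 5 higher (20%), beside 36.3% and 30%. Spearman's rho between span and log2 fold change in triple KD was -0.27 over the 66 genes, which are not independent of one another, and -0.02 over the 13841 protein-coding genes. COL19A1, ITGA9 and LAMA1 were the 3 genes over 150 kb that rose.

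**Figure D5:**
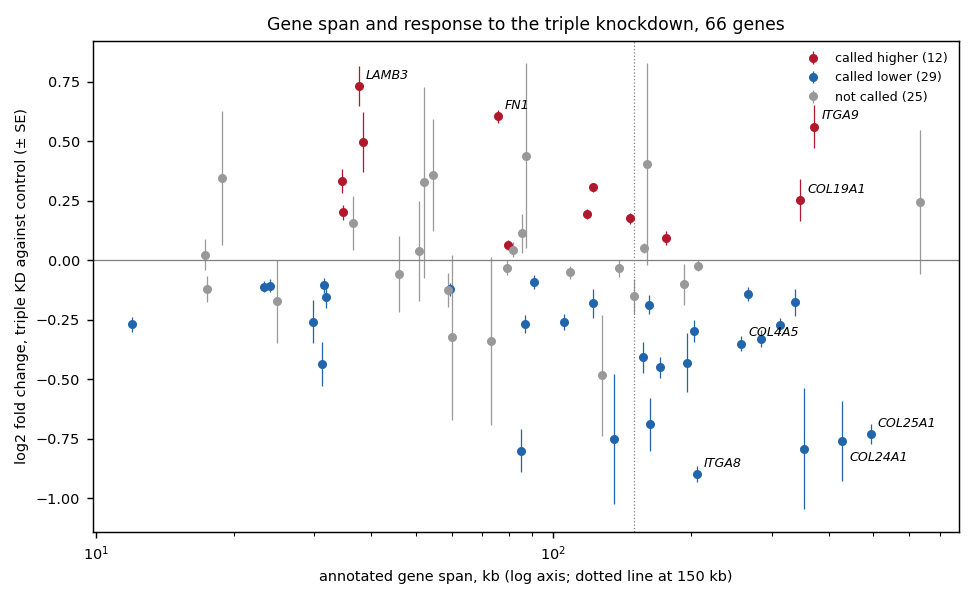
Annotated gene span in kb (log axis) against the log2 fold change in triple KD with its standard error, for all 66 genes, coloured by call. Right of the dotted line at 150 kb, 15 of 24 genes were called lower, among them ITGA8, COL24A1 and COL25A1, and 3 were called higher.

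Introns were searched for GAAGAA, the purine word that SAFB proteins are described to bind. It occurred at a median of 4.55 per 10 kb of intron on the transcribed strand in the 66 genes and 3.98 in protein-coding genes. By call in triple KD the medians were 4.51 for the 12 higher, 4.55 for the 29 lower and 4.62 for the 25 not called, so the density did not separate them. The largest number in a window of the length printed here, counting overlapping words, was 9 in COL24A1, 8 in COL23A1 and 7 in ITGA8, reached by 0.712%, 0.952% and 1.38% of protein-coding genes. Such a maximum grows with intron length. The windows are shown because all 3 genes were called lower in triple KD, COL23A1 not without control replicate 2 (adjusted p = 0.23). They were chosen after their values were seen, and binding was not measured in these files. Each is intronic, from GRCh38, 5′ to 3′ on the transcribed minus strand, with GAAGAA in capitals.
ITGA8 (chr10:15528800-15529099, minus strand): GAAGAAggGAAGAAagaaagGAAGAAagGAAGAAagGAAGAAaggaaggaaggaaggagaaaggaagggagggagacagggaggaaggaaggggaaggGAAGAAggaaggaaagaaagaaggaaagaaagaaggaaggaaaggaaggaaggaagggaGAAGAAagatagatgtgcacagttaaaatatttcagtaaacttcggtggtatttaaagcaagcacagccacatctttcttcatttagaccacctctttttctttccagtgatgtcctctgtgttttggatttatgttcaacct
COL24A1 (chr1:86097345-86097644, minus strand): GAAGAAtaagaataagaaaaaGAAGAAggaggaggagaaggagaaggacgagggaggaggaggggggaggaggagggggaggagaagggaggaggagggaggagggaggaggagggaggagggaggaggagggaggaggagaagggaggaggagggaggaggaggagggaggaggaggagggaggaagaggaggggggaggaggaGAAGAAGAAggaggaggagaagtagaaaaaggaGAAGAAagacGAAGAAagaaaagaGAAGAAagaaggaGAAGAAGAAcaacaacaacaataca
COL23A1 (chr5:178507740-178508039, minus strand): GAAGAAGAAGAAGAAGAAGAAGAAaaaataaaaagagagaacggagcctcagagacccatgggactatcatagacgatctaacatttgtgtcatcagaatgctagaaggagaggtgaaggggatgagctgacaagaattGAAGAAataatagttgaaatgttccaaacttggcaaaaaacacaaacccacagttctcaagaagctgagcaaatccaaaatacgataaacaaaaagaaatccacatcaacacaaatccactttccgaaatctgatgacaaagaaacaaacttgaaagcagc
The words in ITGA8 are scattered through a GGAA-rich repeat, those of COL24A1 sit at both ends of a GGA-rich one, and those of COL23A1 form 1 unbroken run with 1 more apart from it. The next genes by this measure were COL26A1 and LAMA2 with 6 and COL4A5 and ITGA1 with 5. Of these all but LAMA2 were called lower in triple KD. The genes with 4 were mixed. COL19A1, ITGA9, LAMA1 and LAMA4 were called higher, and COL14A1, COL21A1, COL25A1 and COL27A1 lower. COL15A1, COL4A2, COL5A2, COL6A6 and ITGAM were not called. The share called lower was 43.9% of the 66 genes and 62.5% of those over 150 kb. By call the median of this maximum was 2.5 for the genes higher, 3 for those lower and 2 for those not called. Over protein-coding genes it was 2 for each call. Its part in the changes was not tested.

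Some annotated genes lie wholly within an intron of one of the 66 genes, clear of every annotated exon of that gene. The most counted was a noncoding RNA on the same strand inside ITGB2, with 641 counts over the 12 libraries beside 831 for ITGB2 itself, which was called in no knockdown. The next was an RNA on the opposite strand inside ITGA2, with 41 counts. Genes that overlap one of the 66 in other ways are not among these. HASPIN, with 20061 counts, overlaps ITGAE on the opposite strand.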

How the data were processed

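Poly(A) RNA of 12 HEK293 libraries, 3 in each of 4 groups taken from the labels, was sequenced as stranded libraries and deposited as 1 table of raw read counts per gene and library. Per the labels and the methods of the study, the authors trimmed the reads with cutadapt, aligned them to GRCh38 with STAR 2.7.9a in two-pass mode, and took reverse-strand counts per gene of GENCODE release 29. Reads that match several places, or overlapping genes on one strand, are not counted this way. Symbols, spans and exon lengths came from GENCODE release 44, which matched 99% of gene identifiers.

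The counts were fitted with edgeR 4.0.16 (R 4.3.3): TMM scaling, the 26688 genes whose counts sum to 10 or more, all 12 libraries in 1 quasi-likelihood fit with a term per group, two-sided F tests, and Benjamini-Hochberg adjustment over all genes tested, with 0.05 as the threshold. Standard errors are the log2 fold change divided by the root of F. A change over 2-fold was tested with glmTreat. The common biological coefficient of variation was 2.14%. The fitting was also tested on simulated data. Alternatives were upper-quartile and DESeq2 scaling, other count filters, DESeq2 1.42.0, limma-voom (limma 3.58.1), only the libraries compared, a term for the replicate number, and each library left out in turn.

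The genes described, the partner lists and the marker lists were chosen with earlier results of these data known. Genes are named by rule: in each class the 4 highest and 4 lowest called in triple KD, the 5 highest and 5 lowest called in each single knockdown, the 5 smallest p of the remainder over the summed single knockdowns, the leading gene per length of each class, and the 2 highest and 2 lowest called of each partner list as a pool for examples. Sequences of promoters are from RefSeq (GRCh38.p14) and of introns from GRCh38. Libraries with the SAFB2 siRNA alone were not used here. One gene that this rule picks is counted in the totals but is not reported here, and genes the rule does not pick enter mainly through counts and ranges. No library was a copy of another.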

Additional observations from a re-analysis of the deposited data

Results flagged for a closer look

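LAMA3 moved in opposite directions in the single knockdowns. Its log2 fold change was -0.09 in SAFB1 KD and 0.11 in SLTM KD, and the direct comparison of SAFB1 KD with SLTM KD gave -0.207 (edgeR quasi-likelihood F test, adjusted p = 1.7e-07). All 3 SAFB1 KD libraries lay below all 3 control libraries, and all 3 SLTM KD libraries lay above them.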

How the results depend on the processing

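The counts for triple KD moved little: 11 to 14 genes were higher and 26 to 29 lower as each library was left out in turn. The single knockdowns depended more on 1 library. Leaving out each library in turn gave 3 to 9 higher and 3 to 9 lower in SAFB1 KD, 4 to 10 higher and 1 to 3 lower in SLTM KD, 12 to 20 called between SAFB1 KD and SLTM KD, and 15 to 25 of the partner genes called in SLTM KD. Without a low count filter 6 genes were higher in SLTM KD. Of 1075 alternative values for 54 gene results none changed sign, and 56, from 16 of the results, lost their call. In triple KD these were COL19A1, COL11A2, COL23A1 and ITGA11, and the others were in the single knockdowns. No scaling moved the median of all genes by more than 0.034 on the log2 scale. Fitting only the libraries compared could not be done for the remainder over the summed knockdowns, which needs all 4 groups.

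Replicate numbers are shared by the groups. Deviations of same-numbered libraries correlated between -0.025 and 0.139 over 18 pairs, with 1 pair over 0.1. The main fit did not use the numbers as a pairing, and whether same-numbered libraries share a batch was not tested. In 27 of 36 comparisons, each with 3 libraries to choose from, a library matched best with its own number. That is a hint from the data and not from the design. With the replicate block triple KD had 13 genes higher and 30 lower, and 41 in place of 27 partner genes were called in SAFB1 KD. Depth limits what can be said of genes under about 1 CPM, such as ITGA11 and COL23A1, where leaving out 1 library ended the call.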

Other observations

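Of the 82 genes with integrin, laminin, collagen or fibronectin names, 16 had under 120 counts over the 12 libraries and were not described. They ranged from 6 counts for COL1A2, a chain of the type I collagen trimer, to 109 for COL8A1, a collagen of vessels and the cornea. COL6A6 was just inside the minimum with 120 counts. COL1A1, the partner of COL1A2 in that trimer, was at 12.9 ± 0.744 CPM in control (n = 3), so the 2 chains were far apart in these cells.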
